A study of Mus musculus with 6 samples.

Results

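SOX proteins are transcription factors that bind DNA through a high-mobility-group box and act with partner proteins on nearby sites. They are divided into lettered groups by the likeness of their sequences. SOXB1 factors such as SOX2 hold stem cells and neural progenitors in an undifferentiated state, and SOXC factors are associated with neuronal differentiation. As a group, SOXE factors specify oligodendrocyte progenitors and later drive myelin genes, the latter mainly through SOX10. The SOXD factors SOX5 and SOX6 have no activation domain of their own and modulate the other groups in the oligodendrocyte lineage.

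The promoter activity of 10 listed SOX genes was followed in mouse embryonic stem cells and in a line of oligodendrocyte progenitor cells: Sox2 and Sox3 of group B, Sox4, Sox11 and Sox12 of group C, Sox5 and Sox6 of group D, and Sox8, Sox9 and Sox10 of group E. They are 10 of the 35312 genes examined, which code for proteins or long non-coding RNAs. The data are cap analysis of gene expression (CAGE), which sequences a short tag from the 5′ end of captured RNAs. A tag count at a position thus reflects how much captured RNA begins there, whatever the length of the gene. The mESC group comprised 3 libraries of nuclear RNA from R08 cells, a male line kept without feeder cells in serum and leukemia inhibitory factor. The mOPC group comprised 3 nuclear libraries from oli-neu, an established neural line derived from oligodendrocyte progenitors, kept in N2 medium with T3, L-thyroxine, bFGF and PDGF-BB. No further treatment of either line is named. Each group is therefore a single cell line, and the titles number the libraries without telling which cultures they came from, so that the p-values below measure the spread between these libraries.

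Tags were summed within 500 bp of every annotated 5′ end of a gene on its strand and are given as CPM, tags per 1000000 tags of the library. Annotated 5′ ends whose windows touch were joined into 1 promoter, which gave 21 promoters for the 10 genes. The libraries held between 16657021 and 40928704 tags. The library label in the files is common to the 3 libraries of a line and differs between the lines, so that an effect of the preparation cannot be told apart from an effect of the line. The strongest single position took at most 0.67% of the tags in mESC libraries and at least 5.38% in mOPC libraries, which lowers the CPM of all other genes in mOPC. The labels were borne out by most of the defining genes. The 7 stem cell markers summed to between 3630 and 3999 CPM in mESC and to at most 0.451 in mOPC, where 6 of them had no tag. The 7 oligodendrocyte precursor markers summed to between 8.16 and 9.25 CPM in mESC and to between 2083 and 2212 in mOPC. Nkx2-2, a defining gene of the progenitors, was the exception, with 0 tags in mOPC, and Pdgfra reached a mean of only 8.33 CPM there. The 4 markers of myelinating oligodendrocytes summed to between 189 and 223 CPM in mOPC, with Mbp, Mag and Mog higher and Mobp lower than in mESC.

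The sequences around the leading starts are shown first, because the start positions carry the promoter comparisons that follow. For 7 of the 10 genes RefSeq promoter windows of 300 bases (GRCm38.p6) were at hand, and the leading CAGE position of 7 promoters in 5 of these genes fell inside one. Each line gives the 60 bases before the leading position and 20 from it onwards, 5′ to 3′ on the strand of the gene. Capitals mark the leading position as deposited and the base that follows it.
Sox2 (chr3:34649936-34650015, plus strand): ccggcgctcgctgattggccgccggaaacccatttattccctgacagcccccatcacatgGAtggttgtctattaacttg
Sox4 (chr13:28953679-28953758, minus strand): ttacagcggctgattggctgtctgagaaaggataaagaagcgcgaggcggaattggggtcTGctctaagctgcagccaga
Sox11 (chr12:27342686-27342765, minus strand): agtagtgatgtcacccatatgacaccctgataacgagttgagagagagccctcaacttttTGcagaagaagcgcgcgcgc
Sox6, promoter 1 (chr7:116038793-116038872, minus strand): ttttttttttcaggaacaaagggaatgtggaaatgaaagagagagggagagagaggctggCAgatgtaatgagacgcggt
Sox6, promoter 3 (chr7:116031080-116031159, minus strand): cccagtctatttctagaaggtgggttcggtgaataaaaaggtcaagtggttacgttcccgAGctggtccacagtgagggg
Sox6, promoter 7 (chr7:115824696-115824775, minus strand): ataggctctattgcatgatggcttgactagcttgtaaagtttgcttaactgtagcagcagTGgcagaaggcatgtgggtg
Sox8 (chr17:25570668-25570747, minus strand): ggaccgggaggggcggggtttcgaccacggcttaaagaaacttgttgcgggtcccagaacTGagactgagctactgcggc

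The 2 capital bases were a pyrimidine followed by a purine, the usual pair at the start of mammalian RNAs, in 5 of these 7 promoters. Over all RefSeq promoter windows with at least 50 tags at their leading position, such a pair began at the deposited position in 88.0% to 88.9% of cases, depending on the library, and ended at it in 1.02% to 1.49%. Deposited positions therefore mostly lie 1 base before the purine of the pair. The cause of this offset was not tested, and it does not affect sums over windows of 500 bp. A CCAAT box was found in reverse orientation between bases -47 and -43 before the leading position of Sox2 and between -48 and -44 and again between -9 and -5 before that of Sox4, and a GC box, GGGCGG, stood between -50 and -45 at Sox8. The SOX core letters ACAAAG stood on the strand of the gene between -45 and -40 before the leading position of Sox6 promoter 1. Of the 12 windows of SOX genes, 6 belong to Sox6 and 1 to each of the other genes with a window, so counts of windows weigh Sox6 most. In whole windows of 300 bases, searched on both strands, CCAAT was in 7 of the 12 windows of SOX genes and in 37.4% of all 32851 windows, and GGGCGG in 5 of the 12 and in 35.7% of all. TATAAA was in 2 windows of Sox6 and in 13.6% of all. The octamer ATGCAAAT, a POU factor motif, was in the window of Sox12 and in 1.74% of all. Of the letters at the core of SOX sites, ACAATG was in 3 of the 12 windows, those of Sox5 and Sox6, and in 12.6% of all, and ACAAAG was in 6, those of Sox2 and Sox6, and in 18.7% of all.

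All 10 genes differed between the lines, 9 higher in mOPC and 1, Sox2, lower. Among the 16688 genes that passed the filter on low counts, 91.1% differed at an adjusted p under 0.05 (edgeR quasi-likelihood test), 42.4% higher and 48.7% lower in mOPC, so that a call by itself says little in this comparison. The median log2 fold change, mOPC over mESC, was 2.02 over the 10 genes and -0.16 over all genes tested, and the median of its absolute value was 3.01 against 1.62. In each of the 10 genes the 3 values of one line lay outside the range of the other, for which the two-sided exact permutation test gives p = 0.1, the smallest value that 3 libraries against 3 allow. The matching share over all genes tested is not given here, so this separation does not set the SOX genes apart. All 10 genes passed the filter, and none of their tags lay near a 5′ end of another gene on the same strand. The plot of CPM by library shows the genes spread over more than 3 powers of 10 in mESC and more than 2 in mOPC. In such bulk libraries, fewer cells that use a promoter and fewer starts per cell cannot be told apart.

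**Figure D1:**
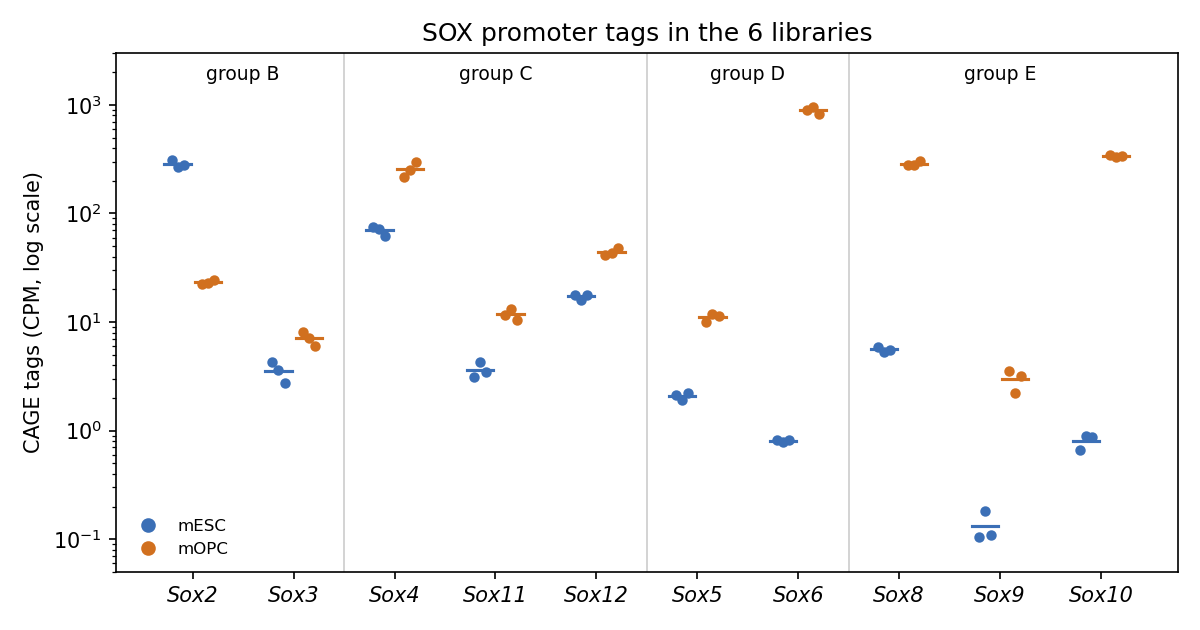
CPM near the annotated 5′ ends of the 10 SOX genes on a log axis, with 1 point per library, blue for mESC and orange for mOPC, and a bar at the mean of 3 libraries. Sox2 stands at 286.6 in mESC and 23.3 in mOPC, and the other 9 genes lie higher in mOPC, with Sox6 at 0.804 and 892.7.

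The order of the genes turned over between the lines. In mESC it ran from Sox2 through Sox4, Sox12, Sox8, Sox11, Sox3, Sox5, Sox10 and Sox6 to Sox9. The ranges of neighbours in this order overlapped for Sox11 and Sox3 and for Sox10 and Sox6. In mOPC the order was Sox6, Sox10, Sox8, Sox4, Sox12, Sox2, Sox11, Sox5, Sox3 and Sox9. Here the ranges of Sox8 and Sox4 overlapped, as did those of Sox11 and Sox5. Sox9 was last in both lines. Since CAGE tags come from the 5′ ends of RNAs, these levels compare genes without correction for gene length. They are sums over all promoters of a gene, 9 for Sox6 and 1 for Sox2. Without molecular identifiers, a tag need not stand for a separate RNA.

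Taken by group, SOXB starts made up most of the SOX tags in mESC and SOXD and SOXE starts most of them in mOPC. Summed over the 10 genes, the mESC libraries had 423.1, 371.1 and 377.0 CPM and those of mOPC 1834, 1923 and 1861. Group B held 74.3% ± 1.499 of these tags in mESC (SD, n = 3) and 1.63% ± 0.0591 in mOPC. Group C held 23.3% ± 1.49 and 16.6% ± 2.25, although its CPM sum was higher in mOPC. Group D went from 0.742% ± 0.0582 to 48.2% ± 3.10, and group E from 1.68% ± 0.0907 to 33.5% ± 1.57. In every group the libraries of one line lay apart from those of the other, both as shares and as CPM. How often other sets of genes separate in this way is not given here, so this does not set the SOX groups apart. The shares are parts of one whole, so those of the groups are not separate results. Group D was in effect Sox6 and group B was Sox2, since these genes alone held 47.6% and 73.4% of the SOX tags in mOPC and in mESC, respectively.

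**Figure D2:**
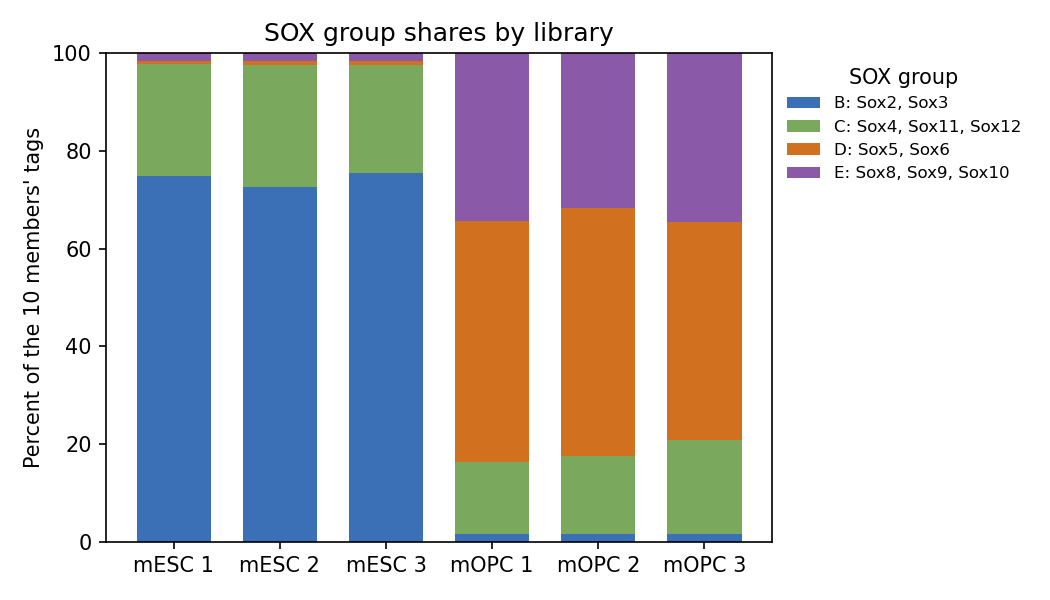
Share of each SOX group in the tags of the 10 genes, in percent, stacked for each of the 6 libraries. Group B fills between 72.6% and 75.4% of the bar in the mESC libraries, whereas group D fills between 44.8% and 50.7% and group E between 31.7% and 34.5% in the mOPC libraries.

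Group B holds Sox2, which keeps stem cells pluripotent together with POU5F1 and NANOG, and Sox3, its close relative on the X chromosome. Sox2 (ENSMUSG00000074637.7, chr3:34650405-34652461, mm10, plus strand) is a gene of 1 exon inside an intron of the long non-coding gene Sox2ot. Its CPM values were 312.6, 265.8 and 281.4 in mESC and 22.6, 22.8 and 24.5 in mOPC. All mESC libraries were far above all mOPC libraries, and the mOPC values rest on 495 to 1004 tags per library. The log2 fold change was -3.73 ± 0.094 (SE; edgeR, adjusted p = 4.66e-62), and 16.7% of all genes tested were at least as far below 0. The leading start, position 34649996 in both lines, lay 409 bp upstream of the annotated 5′ end. Windows of 100 bp miss it and gave a log2 fold change of -1.97, and all tags within the annotated gene, which leave it out too, gave -2.39.

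Sox3 (ENSMUSG00000045179.9, chrX:60891366-60893430, minus strand) had 4.33, 3.60 and 2.77 CPM in mESC and 8.12, 7.18 and 6.06 in mOPC. The direction was opposite to that of Sox2, and the distance between the lines was small beside that of most other SOX genes. Its log2 fold change of 0.82 ± 0.154 (SE; edgeR, adjusted p = 8.14e-07) was the smallest of the 10 in absolute value. Of all genes tested, 32.4% were at least as far above 0, with those below 0 not counted. The starts were concentrated on position 60893440, which held 87.3% of 275 tags in mESC and 79.6% of 633 tags in mOPC. This position lies 10 bp upstream of the annotated gene, so the sum of all tags inside the gene leaves it out, and that sum gave a log2 fold change of 3.28.

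The SOXC genes, which are known for their roles in neural progenitors and maturing neurons, were all higher in mOPC by a moderate amount. Sox4 (ENSMUSG00000076431.4, chr13:28948919-28953713, minus strand) had 75.6, 72.2 and 62.0 CPM in mESC and 217.4, 250.9 and 297.4 in mOPC. It was the second strongest SOX gene in mESC and the fourth in mOPC. The log2 fold change was 1.75 ± 0.104 (SE; edgeR, adjusted p = 9.24e-17). Sox11 (ENSMUSG00000063632.6, chr12:27334264-27342574, minus strand) had 3.14, 4.32 and 3.47 CPM in mESC and 11.5, 13.3 and 10.4 in mOPC. It stayed a weak promoter in both lines, and its log2 fold change was 1.604 ± 0.146 (SE; edgeR, adjusted p = 1.09e-18). Its leading start lay 131 bp upstream of the annotated 5′ end, and with windows of 100 bp the gene fell below the filter on low counts.

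Sox12 (ENSMUSG00000051817.8, chr2:152393611-152398063, minus strand) had 17.9, 16.1 and 17.7 CPM in mESC and 41.6, 43.2 and 47.9 in mOPC, a log2 fold change of 1.24 ± 0.0979 (SE; edgeR, adjusted p = 2.61e-22). Its leading positions lay 327 bp downstream of the nearest annotated 5′ end in mESC and 323 bp downstream in mOPC. A second cluster of starts, chr2:152397254-152397318, stood in the coding exon 744 bp downstream and outside the windows of 500 bp. This cluster had a mean of 5.501 CPM in mESC and 33.8 in mOPC. Tags inside the gene but away from annotated 5′ ends made up 32.1% ± 1.16 of the Sox12 tags in mESC and 47.0% ± 0.776 in mOPC (SD, n = 3), and the ranges of the lines did not overlap.

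The SOXD genes have many annotated promoters and long introns, and both were higher in mOPC, Sox6 by far the more. Sox5 (ENSMUSG00000041540.16, chr6:143828425-144781977, minus strand) had 2.11, 1.92 and 2.23 CPM in mESC and 9.94, 11.9 and 11.3 in mOPC. The log2 fold change was 2.29 ± 0.158 (SE; edgeR, adjusted p = 4.59e-26) and 2.93 with windows of 100 bp. Nearly all of these tags came from the most upstream of its 4 promoters, with 98.7% of the 153 mESC tags (95% Wilson interval 95.4% to 99.6%) and a mean share of 99.3% ± 0.414 in mOPC (SD, n = 3). No protein-coding transcript is annotated to begin at that promoter. The promoters where the coding transcripts begin, 572 and 835 kb downstream, had at most 0.0777 CPM in the mean of a line, and Sox5 is therefore lost when only the 5′ ends of coding transcripts are counted. The starts were spread out, with no position above 5.80% of the tags in mOPC.

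Sox6 (ENSMUSG00000051910.13, chr7:115470872-116038796, minus strand) rose from the last but one of the 10 genes to the first. Its CPM values were 0.818, 0.780 and 0.814 in mESC and 892.3, 964.1 and 821.9 in mOPC. The mESC values rest on 31, 13 and 15 tags. The log2 fold change was 9.98 ± 0.148 (SE; edgeR, adjusted p = 8.21e-83), and 0.953% of all genes tested were at least as far above 0. Counting error limits the mESC values far more than the mOPC values, which rest on 19563 to 33638 tags.

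**Figure D3:**
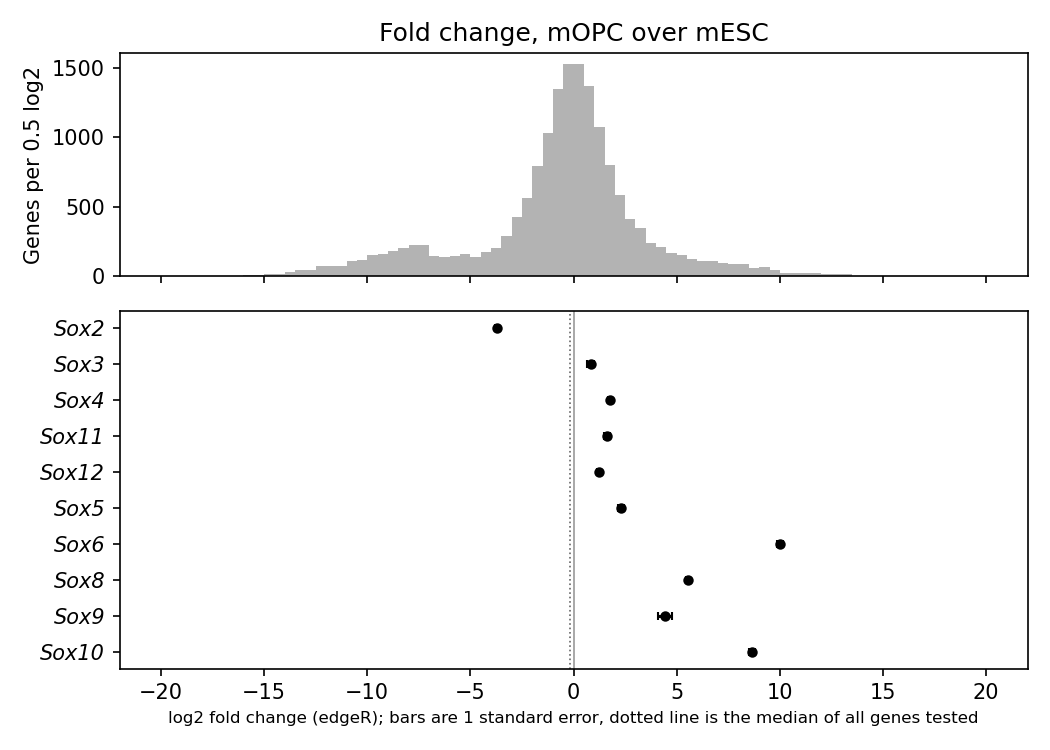
Upper panel, number of genes per step of 0.5 in log2 fold change, mOPC over mESC, for the 16688 genes tested. Lower panel, the same quantity for the 10 SOX genes with bars of 1 standard error. Sox2 lies at -3.73, and the other genes lie between 0.82 (Sox3) and 9.98 (Sox6), against a median of -0.16 over all genes, drawn as a dotted line.

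All 9 promoters of Sox6 reached 1 CPM in mOPC and none did in mESC. They are numbered here from the 5′ side of the gene. Promoter 1, at the annotated start of the gene, had 136.2, 151.1 and 134.6 CPM in mOPC. Promoter 2, 4.28 kb further downstream, had 126.0, 141.9 and 111.7, and promoter 3, at 7.75 kb, had 263.9, 273.8 and 244.3. The strongest was promoter 7, which lies 214 kb inside the gene and had 352.0, 383.5 and 317.2 CPM. Promoter 4, at 43.7 kb, had 7.98, 6.62 and 7.01, and promoters 5, 6, 8 and 9 had means between 1.25 and 1.92. Per kb of window, these 4 had between 1.19 and 1.92 CPM, close to the mean of 1.35 CPM per kb over the rest of the gene, whereas promoter 4 had 7.198 and promoter 7 350.5. In mOPC the shares of the promoters in the Sox6 tags varied little between libraries. Promoter 7 held 39.3% ± 0.611, promoter 3 29.2% ± 0.724, promoter 1 15.8% ± 0.564 and promoter 2 14.1% ± 0.565 (SD, n = 3).

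**Figure D4:**
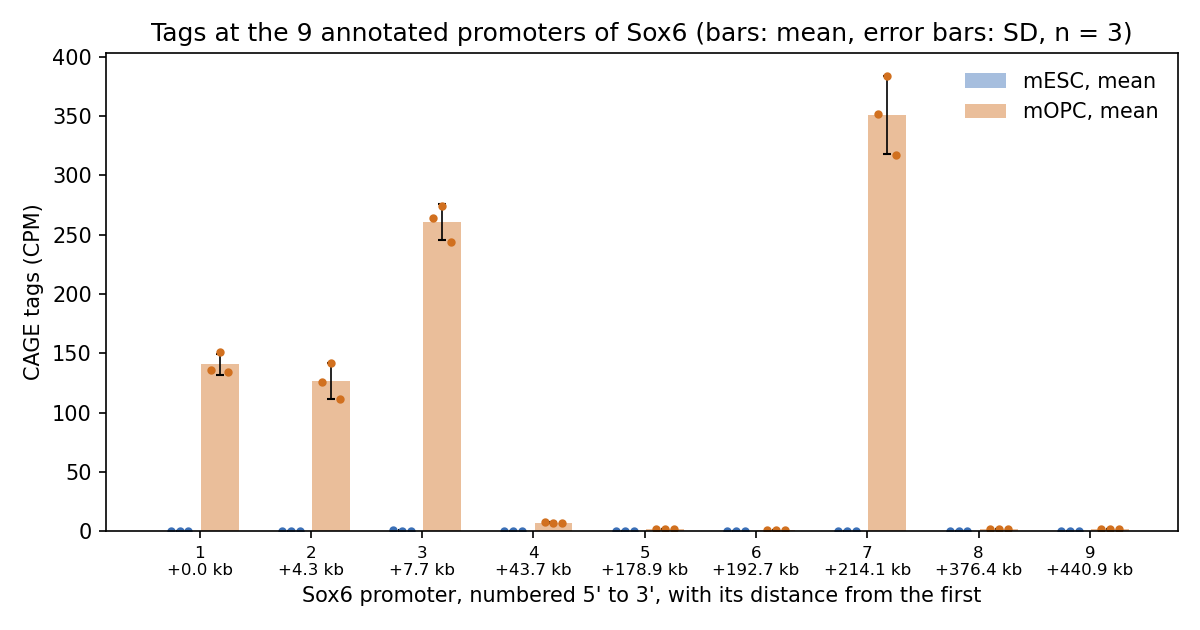
CPM at the 9 annotated promoters of Sox6, numbered 5′ to 3′ with their distance from the first, as the mean (bar), SD (error bar) and value of each of 3 libraries (points) in mESC and mOPC. Promoters 7, 3, 1 and 2 carry means of 350.9, 260.7, 140.6 and 126.5 CPM in mOPC, and all mESC values lie near 0.

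The few Sox6 tags of mESC came from other promoters than most of those of mOPC. Promoter 3 had 24, 9 and 7 tags in the mESC libraries and promoter 2 had 7, 4 and 6. Promoter 4 had 2 tags, both in mESC replicate 3, and the remaining 6 promoters had none. Pooled over the 59 Sox6 tags of mESC, promoter 3 held 67.8% (95% Wilson interval 55.1% to 78.3%) and promoter 2 28.8% (18.8% to 41.4%). For promoters 1 and 7 the upper limit of the interval was 6.11%, below their shares in mOPC. A test of promoter use across genes with 2 or more tested promoters (edgeR) called a shift for Sox6 at an adjusted p of 7.11e-12, in a comparison where 72.5% of 3348 genes were called. The 6 promoters without a tag in mESC passed the filter only through mOPC, so this call is fitted in part against 0 tags. Relative to the gene as a whole, promoter 7 was higher in mOPC by 4.30 and promoter 1 by 3.38 on the log2 scale, whereas promoter 3 was lower by a log2 difference of -0.85 and promoter 2 by -0.73. The first 2 of these values are fitted against 0 tags and depend on the prior of the fit. Against the limit that 0 tags allow (3 tags over the pooled mESC libraries), promoter 7 was at least 8425-fold higher in mOPC and promoter 1 at least 3409-fold. With pooled tags the ratios for promoters 2 and 3 were 535 and 471. The exact permutation test of the shares gave p = 0.1 for 8 of the 9 promoters and p = 1 for promoter 4, and p = 0.113 for the 8 after adjustment over the 9 shares compared. Promoters 5, 6, 8 and 9 held only 0.140% to 0.215% of the Sox6 tags in mOPC. The 59 mESC tags allow shares of up to 6.11%, so a difference in share was not detectable for these promoters.

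Outside the annotated promoters, Sox6 also had the most starts of the 10 genes in mOPC, though not in mESC, where Sox4 had a mean of 12.9 CPM of such tags. Tags inside the gene but away from annotated 5′ ends had means of 0.844 ± 0.160 CPM in mESC and 753.8 ± 30.3 in mOPC (SD, n = 3). They made up 50.9% ± 4.40 of all Sox6 tags in mESC and 45.8% ± 1.69 in mOPC. Most of them were scattered, with few of them in clusters of neighbouring positions that reached 1 CPM. Such clusters were sought in the gene and 3000 bp on either side, and 24 were found. Of these, 16 lay in introns and 1 in a coding exon. The other 7 lay upstream of the gene and so hold none of the tags counted above. None of the 24 had a tag in mESC. The strongest of the intronic clusters, chr7:115669720-115669754, had a mean of 10.9 CPM in mOPC and stood at -7373 bp from the nearest annotated 5′ end. The 7 upstream clusters stood between -1349 and -501 bp from its first 5′ end and had means of up to 33.5 CPM. They run opposite to the protein-coding gene 1110004F10Rik, whose own promoter differed by a log2 fold change of 0.58 (edgeR, adjusted p = 5.15e-10).

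The SOXE genes specify the oligodendrocyte lineage and bind as dimers or monomers at many glial genes. In mOPC Sox8 and Sox10 were strong promoters and Sox9 was a weak one. Sox8 (ENSMUSG00000024176.10, chr17:25565892-25570686, minus strand) had 5.89, 5.34 and 5.54 CPM in mESC and 280.9, 277.9 and 303.1 in mOPC. Its log2 fold change was 5.56 ± 0.108 (SE; edgeR, adjusted p = 3.19e-72), and 5.50% of all genes tested were at least as far above 0. Its mESC level was the highest of the SOXE genes, and the fourth highest of the 10 SOX genes.

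Sox10 (ENSMUSG00000033006.10, chr15:79154908-79165240, minus strand), the factor that myelin genes depend on, had 0.660, 0.901 and 0.868 CPM in mESC and 346.3, 329.7 and 335.5 in mOPC. The mESC values rest on 25, 15 and 16 tags. Its log2 fold change was 8.65 ± 0.140 (SE; edgeR, adjusted p = 8.43e-80), second to that of Sox6. With windows of 100 bp its 5′ ends fall into 2 promoters. The most upstream had a mean of 15.7 CPM in mOPC and 0 tags in mESC, and the main one 303.1 and 0.754. The test of promoter use then called Sox10 (edgeR, adjusted p = 0.0277), where 75.7% of the 3639 genes tested in this way were called. This call is fitted against 0 tags, and the upstream promoter passed the filter only through mOPC. It held 4.94% of the tags in mOPC, while 0 of the 52 mESC tags allow a share of up to 5.77%, so a difference in share was not detectable at this depth. A group of 3 small clusters in the intron, between 5403 and 5545 bp downstream of the nearest annotated 5′ end, had means of 2.43 to 6.18 CPM in mOPC and 0 tags in mESC.

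Sox9 (ENSMUSG00000000567.5, chr11:112782224-112787760, plus strand), which acts in cartilage, testis and glial progenitors, was the weakest of the 10 genes in both lines. It had 4, 3 and 2 tags in the mESC libraries, or 0.106, 0.180 and 0.109 CPM. The mOPC libraries had 3.56, 2.22 and 3.15 CPM from 78, 64 and 129 tags. The log2 fold change was 4.42 ± 0.350 (SE; edgeR, adjusted p = 3.36e-22), with the largest error of the 10 genes.

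SOXE genes are also active in Schwann cells and astrocytes, whose markers were therefore summed. The 4 Schwann cell markers had between 23.9 and 27.2 CPM in mESC and between 22.6 and 25.04 in mOPC, with Pmp2 at a mean of 0.193 there. The 4 astrocyte markers had between 46.7 and 50.7 CPM in mESC and between 82.7 and 94.8 in mOPC, most of it from Slc1a3 (means of 39.7 and 89.5), while Aqp4 had 0 tags in mOPC. The 3 microglia markers had at most 0.139 CPM in any library and the 3 fibroblast markers between 9.67 and 12.3 in mOPC, all but a few tags from Col1a1. The 4 neuron markers had between 10.3 and 10.9 CPM in mESC and between 81.3 and 101.9 in mOPC, of which Syt1 alone had a mean of 88.3, while Rbfox3 and Snap25 had 0 tags there. The 4 endoderm and mesoderm markers had between 20.2 and 23.9 CPM in mESC and at most 0.0489 in mOPC. The part of such cells in the SOX values was not tested.

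Of the 21 promoters of the SOX genes, 18 passed the filter on low counts, of which 17 were higher and 1, that of Sox2, lower in mOPC. Among the 21764 promoters tested, 43.5% were higher and 46.1% lower. Sox6 promoters 1, 5, 6, 7, 8 and 9 had 0 tags in mESC. They passed the filter only through mOPC and could be called only as higher. The same holds for promoter 4 of Sox6 and the promoter of Sox9, with 2 and 9 pooled mESC tags. In mESC 7 promoters had a mean of at least 1 CPM, and in mOPC 18 had. Of these 18, 9 belonged to Sox6, including the 4 that stood near the level of the rest of the gene, and Sox6 was the only SOX gene with more than 1 such promoter.

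Where a promoter was used in both lines, the lines mostly began at the same base. Of the 8 promoters with at least 50 tags in each line, 6 had the same leading position and 7 had leading positions within 10 bp. The exceptions were Sox12, with a shift of 4 bp, and Sox5, whose diffuse starts had leading positions 202 bp apart. The share of the leading position ranged widely among genes. Between the lines, the ranges of the libraries overlapped for Sox5, Sox8, Sox10 and Sox11 and lay apart for Sox2, Sox3, Sox4 and Sox12. For Sox4 they barely did, with a lowest mESC value of 54.86% and a highest mOPC value of 54.84%. For Sox5 and Sox12 each line was measured at its own leading position. The matching share over all promoters is not given here, so this separation does not set the SOX promoters apart. At Sox8, position 25570687 held 69.8% of the tags in mESC and 70.4% in mOPC. At Sox4, position 28953698 held 58.3% and 51.7%, and at Sox2, position 34649996 held 32.1% and 25.4%. At Sox12 the leading position held 8.96% in mESC, from 8.58% to 9.14% by library, and that of mOPC 16.7%, from 15.2% to 17.4%. At Sox10, position 79164487 held 32.1% of the 56 mESC tags and 37.6% in mOPC. The central 80% of tags, from the 10th to the 90th percentile, spanned 3 bp in mOPC for Sox8, 8 bp for Sox4 and 320 bp for Sox11.

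**Figure D5:**
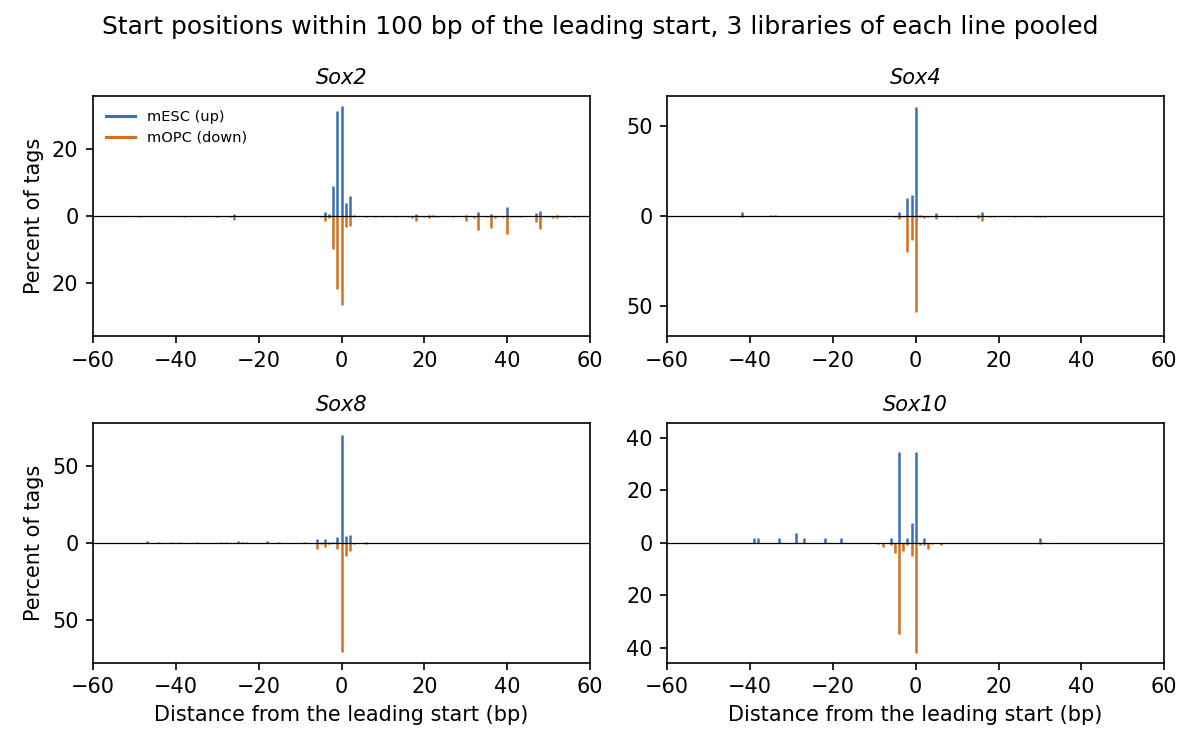
Percent of the tags at each position within 100 bp of the leading start, drawn from -60 to 60 bp, for Sox2, Sox4, Sox8 and Sox10, with mESC above and mOPC below the axis and 3 libraries pooled per line. In each of the 4 genes the highest bar of mOPC stands at distance 0 and that of mESC at the same position, shared at Sox10 with a neighbouring one 4 bp upstream.

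The SOX genes have annotated neighbours, most of them non-coding. In all, 16 genes overlap a SOX gene or have a 5′ end within 5000 bp of one of its own, 15 of them long non-coding and 1, 1110004F10Rik beside Sox6, protein-coding. Of the 7 that passed the filter, 6 were higher in mOPC, among them 1110004F10Rik, and none was lower, against 42.4% higher and 48.7% lower over all genes tested. Sox6os and BC006965, which had no tag in mESC, passed the filter only through mOPC and could be called only as higher. Sox2ot, whose introns hold Sox2 on the same strand, had 3.72, 3.54 and 3.04 CPM in mESC and 77.4, 70.1 and 70.0 in mOPC, a log2 fold change of 4.26 ± 0.117 (SE; edgeR, adjusted p = 8.81e-59). It thus differed in the direction opposite to Sox2. The Sox2ot promoter 12.2 kb upstream of the Sox2 gene had a mean of 58.1 CPM in mOPC and 0.0269 in mESC. The direction was not the same at every Sox2ot promoter, since the one 5.63 kb downstream of the Sox2 start had a mean of 1.42 CPM in mESC and 0.471 in mOPC. Sox6os, opposite to Sox6, and BC006965, on the other strand 248 bp from Sox9, were at least 38.2-fold and 19.1-fold higher in mOPC. Gm14662, 223 bp from Sox3, had means of 0.391 and 0.319 CPM and was not called (edgeR, adjusted p = 0.456). Gm10863, on the other strand 801 bp from Sox10, is named after its values were seen. It had 20.03, 21.8 and 23.7 CPM in mESC, where Sox10 had fewer than 1, and 290.4, 273.0 and 311.5 in mOPC.

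Among 9 other genes of the family, 8 passed the filter, of which 7 were lower in mOPC and 1 was higher, against 48.7% and 42.4% of all genes tested. Of the 8, 6 passed only through mESC, having at most 3 tags in mOPC. The median log2 fold change was -8.83 as fitted and -6.04 with genes without tags in mOPC set to their bound, against -0.16 over all genes tested. Sox21, a group B gene that counteracts SOXB1 factors in neural progenitors, was the one that was higher, with means of 1.78 and 24.4 CPM and a log2 fold change of 3.66 ± 0.155 (SE; edgeR, adjusted p = 1.73e-37). Sox15, Sox7 and Sox1 had no tag in mOPC and means of 11.9, 8.37 and 3.52 CPM in mESC. They were at least 366-fold, 253-fold and 109-fold lower in mOPC. Sox1 is a SOXB1 gene like Sox2 and Sox3, so Sox3 was the only one of these 3 SOXB1 genes with more CPM in mOPC.

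Of 16 listed partner factors of SOX proteins, 14 passed the filter, 7 higher and 6 lower in mOPC, and their log2 fold changes had a median of 0.39. Of all genes tested, 42.4% were higher and 48.7% lower with a median of -0.16, so these counts were close to the background. Pou5f1 and Nanog, partners of SOX2 in stem cells, had means of 1007 and 123.1 CPM in mESC and no tag in mOPC, and so did Nkx6-2 with 1.34. They were at least 30617-fold, 3748-fold and 40.6-fold lower. Olig2 and Olig1, which act beside SOX10 in the oligodendrocyte lineage, rose from 0.0376 to 425.0 and from 0.581 to 97.3 CPM. Pou3f2, a POU factor of neural cells, rose from 0.101 to 7.70 (log2 fold change 6.14 ± 0.297; edgeR, adjusted p = 1.76e-37). Hdac2 was the only one tested that was not called (means of 285.2 and 346.3; edgeR, adjusted p = 0.059).

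Genes known as targets of the groups were counted in the same way. All 11 known targets of SOX2 in stem cells were lower in mOPC, with a median log2 fold change of -14.78 as fitted and -11.87 with bounds, where 48.7% of all genes tested were lower. Of these 11, 7 had no tag in mOPC and passed the filter only through mESC. Among them Pou5f1, Zfp42 and Utf1 had no tag in mOPC. Of 19 targets of SOXE factors, 18 passed the filter, 15 higher and 2 lower, with a median of 2.08, against 42.4% higher, 48.7% lower and a median of -0.16 over all genes tested. S100b, a calcium-binding protein of glia, had a mean of 0.0176 CPM in mESC and 205.8 in mOPC. The progenitor proteoglycan Cspg4 had 0.710 and 576.2, and Dct, an enzyme of melanin synthesis, had 0.0381 and 11.9. Acan and Ednrb had no tag in mOPC and were at least 47.3-fold and 18.8-fold lower, and Gjb1 was not called (means of 1.47 and 1.85; edgeR, adjusted p = 0.339). Of 4 targets of SOXC factors, 3 passed the filter and all 3 were lower in mOPC, with a median of -1.73, against the same 48.7%. These were Tead2 (-3.06), Tubb3 (-1.73) and Dbn1 (-1.02) on the log2 scale. Several of these targets also served as markers of the lines, so the counts of the targets and of the markers are not separate results.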

How the data were processed

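Nuclear CAGE libraries of R08 mESCs and oli-neu mOPCs were analysed (3 each). According to the study's methods, linkers were trimmed and tags aligned to mm10 with bowtie, unique alignments were kept, and start sites were extracted with CAGEr. The submitters' processing notes name CASAVA 1.8 and BWA 0.5.9 instead, and which aligner made the files was not settled. The deposited values are raw counts of tags per position and strand, without normalization, at positions 1 bp wide.

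Counts were summed within 500 bp of GENCODE vM21 5′ ends (Python 3.11.15, pandas 2.3.3) and scaled to the file's total (CPM) for display. Genes and promoters were tested on these counts by the quasi-likelihood method of edgeR 4.0.16 in R 4.3.3 (TMM, filterByExpr, robust fit, Benjamini-Hochberg adjusted p under 0.05, no block), promoter use with its diffSpliceDGE, and DESeq2 1.42.0 was an alternative. The SE of a log2 fold change was derived from this test, as its absolute value divided by the square root of the F statistic. It is therefore approximate. The scripts were tested on simulated data. Shares were compared by exact permutation tests (scipy 1.17.1). Bounds use 3 tags over pooled libraries. As no molecular identifiers were used, bounds and intervals reflect counting error alone. Clusters joined positions of at least 0.5 CPM up to 20 bp apart.

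The SOX genes and the gene lists were chosen with earlier results of these data known. All SOX genes were described. 1 gene of these lists is not reported here and was left out of their counts. From each other list at most 3 genes per direction with the largest called fold change, and the strongest gene not called, were named. Alternatives were other scalings, filters, windows (100 and 1000 bp), sets of 5′ ends, tools, a replicate block and each library left out.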

Additional observations from a re-analysis of the deposited data

How the results depend on the processing

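The 10 SOX genes kept their direction and their call in all 158 refits of single genes. All were called in every setting except windows of 100 bp, where Sox11 was not tested, and 5′ ends of coding transcripts only, where Sox5 was not, each leaving 9 genes called. The widest ranges of log2 fold change were -3.81 to -1.97 for Sox2 and 0.65 to 3.28 for Sox3, and Sox6 stayed between 9.73 and 10.22. Scaling to library totals raised the median log2 fold change of all genes by 0.11, and the SOX genes moved with it. With windows of 1000 bp, the CPM sums rose to 32.5 for group B in mOPC, to 102.9 and 356.8 for group C in mESC and mOPC, and to 1007 for group D in mOPC, and the order of the groups within each line was unchanged. Leaving out 1 library at a time, the share of promoter 4 of Sox6 in mOPC minus that in mESC ran from -5.86 to 0.81 percentage points, and it changed sign without mESC replicate 3, which holds its 2 mESC tags. Genes with a called shift in promoter use numbered 3989 in place of 2427 when promoters with at least 10 tags were kept, and 2 SOX genes, Sox6 and Sox10, were called with windows of 100 bp. Libraries with the same number did not pair, with correlations of 0.0044, 0.11 and 0.0079 between the deviations of mESC and mOPC libraries, and with a replicate block 15183 genes and all 10 SOX genes were called. For Sox9 and for Sox6 and Sox10 in mESC, tag counts of 2 to 31 per library limit the precision.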

Other observations

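The protein-coding genes whose CPM followed those of Sox2 most closely over the 6 libraries were Ube2c, Siva1 and Rpl5, by the Euclidean distance of log2(CPM + 1), with distances of 0.34, 0.36 and 0.39. Ube2c, an enzyme of the anaphase-promoting pathway, had means of 322.8 CPM in mESC and 24.6 in mOPC. The genes closest to Sox10 were Col16a1, Rgcc and Grik2, at distances of 0.70, 0.91 and 0.97. Col16a1, a collagen chain, had means of 0.499 and 291.2 CPM, and Grik2, a kainate receptor subunit, had 0.300 and 406.5. With 2 lines, such likeness rests on 2 levels and says only that these genes stood at similar heights in each line.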
